A study of Mus musculus with 79 samples.

Results

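The expression of 10 heat shock protein genes was followed in quadriceps muscle of the BXD mouse family: Hspa1a, Hspa1b, Hspa5, Hspa8, Hsph1, Dnajb1, Hsp90aa1, Hspb1, Hspb7 and Cryab. They were found by gene symbol. These 10 genes had 15 of the 35556 probesets of the array, and a gene with several probesets was represented by the one with the highest mean over all arrays. All mice were males, either of the parental strains C57BL/6J and DBA/2J or of the inbred BXD strains derived from them. One arm ate chow (CD) throughout, and the other was switched to high fat feeding (HFD) at 8 weeks of age. Both arms were sacrificed at 29 weeks after an overnight fast. An array held pooled RNA of about 5 mice that shared strain and diet, so the spread between mice of a strain was not measured, and p-values reflect the spread between pools. There were 42 CD and 37 HFD arrays from 42 strains, and 37 strains had an array on each diet.

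The values are scores, scaled so that the probesets of an array average 8.0 with an SD of 2.0 units. They behave as logarithms, but the base was not stated, so differences are given in score units and not as folds. The score of Xist, a transcript of females, was 5.455 to 6.446 on the 79 arrays, and that of Ddx3y on the Y chromosome 10.155 to 11.147. The muscle genes Acta1, Ckm and Myh4 had a score of at least 14.588 on every array. The titles gave 2 array batches, and the batch means of a member within a diet differed by at most 0.080. Across 64 probesets that split the strains into separate clusters, the CD and HFD arrays of a strain fell into different clusters for at most 7, in BXD73. In whole muscle, fewer cells of a type and less RNA per cell cannot be told apart.

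Heat shock proteins are chaperones, which bind unfolded proteins and help them to fold or to be degraded. In the cytosol, proteins of the HSP70 family (Hspa1a, Hspa1b, Hspa8) hold and release their clients in a cycle driven by ATP. Dnajb1, an HSP40 co-chaperone, starts that cycle, and Hsph1, an HSP110 protein, helps to complete it by exchanging the nucleotide. Hsp90aa1 encodes the stress-inducible cytosolic HSP90, which acts on signalling proteins and receptors. Hspa5, also called BiP, is the HSP70 of the endoplasmic reticulum and a target of the unfolded protein response. Hspb1, Hspb7 and Cryab are small heat shock proteins, which are abundant in muscle and protect the contractile filaments. The factor HSF1 drives the inducible cytosolic genes through heat shock elements in their promoters.

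The promoters are shown first because members that vary together are described further on. A RefSeq promoter table of build GRCm38.p6 held 7 of the 10 members (Hspa1a, Hspa1b, Hspa5, Hsph1, Dnajb1, Hspb1 and Hspb7), each as 250 bases before and 50 after an annotated start. The heat shock element was searched as GAANNTTC or TTCNNGAA, which read the same on both strands. It was present before a start in 4 of the 7, against 12.8% of all promoter windows. The endoplasmic reticulum stress element, with CCAAT and CCACG separated by any 9 bases and searched on both strands, was present in 1 of the 7, Hspa5. It was present in 0.113% of all windows. The 150 bases before the start are printed for the 5 members with a match, 5′ to 3′ on the gene's strand, with the fixed letters of the motif in capitals. They lie at chr17:34972157-34972306 (minus strand) for Hspa1a, chr17:34959239-34959388 (minus) for Hspa1b, chr5:149636337-149636486 (minus, the outer of 2 listed starts) for Hsph1, chr5:135887769-135887918 (plus) for Hspb1 and chr2:34771940-34772089 (plus) for Hspa5.
Hspa1a: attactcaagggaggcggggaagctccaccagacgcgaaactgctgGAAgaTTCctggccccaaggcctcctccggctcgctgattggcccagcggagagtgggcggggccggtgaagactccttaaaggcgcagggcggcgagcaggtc
Hspa1b: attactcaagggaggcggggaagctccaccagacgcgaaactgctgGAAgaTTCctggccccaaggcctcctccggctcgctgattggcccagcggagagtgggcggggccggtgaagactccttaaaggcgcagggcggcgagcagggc
Hsph1: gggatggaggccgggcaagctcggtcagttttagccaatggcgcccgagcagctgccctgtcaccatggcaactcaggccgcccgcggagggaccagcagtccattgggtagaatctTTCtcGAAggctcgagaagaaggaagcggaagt
Hspb1: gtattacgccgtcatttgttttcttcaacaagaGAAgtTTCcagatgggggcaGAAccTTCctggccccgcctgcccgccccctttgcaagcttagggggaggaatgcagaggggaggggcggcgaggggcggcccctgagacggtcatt
Hspa5: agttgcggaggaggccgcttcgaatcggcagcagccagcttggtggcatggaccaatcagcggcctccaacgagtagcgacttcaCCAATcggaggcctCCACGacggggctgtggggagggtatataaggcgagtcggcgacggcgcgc

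The match begins 104 bases before the start in Hspa1a and in Hspa1b, 33 bases before it in Hsph1, and 117 and 97 bases before it in Hspb1. In Hspa5 the endoplasmic reticulum stress element begins 65 bases before the start. The printed stretches of Hspa1a and Hspa1b share 149 of 150 bases. The coding sequences of this pair are also near-identical, so their probesets can share signal and their values are uncertain as separate genes. No match says only that these letters are not in the window. Neither motif was in the windows of Dnajb1 and Hspb7.

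The effect of the diet was asked first. Hspa5 was higher on HFD, and the other 9 members did not pass the test in the fit over all arrays. The Hspa5 score ran from 11.241 to 11.751 on CD, with a median of 11.508, and from 11.372 to 11.899 on HFD, with a median of 11.679. The lowest CD array was BXD50 and the highest HFD array BXD69. The ranges overlapped, but 30 of the 37 paired strains were higher on HFD. The difference, HFD minus CD, was 0.13 units (SE 0.027, 95% confidence interval 0.077 to 0.185, limma adjusted p = 6.16e-05). It was 0.14 in batch 1 alone and 0.13 in batch 2 alone, with limma adjusted p of 0.00742 and 0.0211. When the diets were exchanged at random within strains, the permutation p was 1e-05, the smallest that 100000 draws can give.

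With 1 of 10 members called, the share was below that of the array, where 38.1% of all probesets passed, 18.9% higher and 19.3% lower on HFD. The median difference was 0.10 over the members and -0.00066 over all probesets. The difference was negative for Hspa1b and positive for the other 9. Labels pair the arrays by strain, and with strain as a block over the paired strains 4 members were called, all higher on HFD. In that fit 40.6% of all probesets were called in either direction, a share like that of the members, and 20.7% were higher. The additional calls were Hsph1 (0.09, SE 0.028, adjusted p = 0.00662), Hsp90aa1 (0.13, SE 0.044, adjusted p = 0.0197) and Cryab (0.09, SE 0.035, adjusted p = 0.0298). Without the block their limma adjusted p was 0.147, 0.121 and 0.103. They were higher on HFD in 25, 26 and 23 of the 37 strains. With the array medians subtracted, 2 members were called, Hspa5 and Cryab, where 39.3% of all probesets were.

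**Figure D1:**
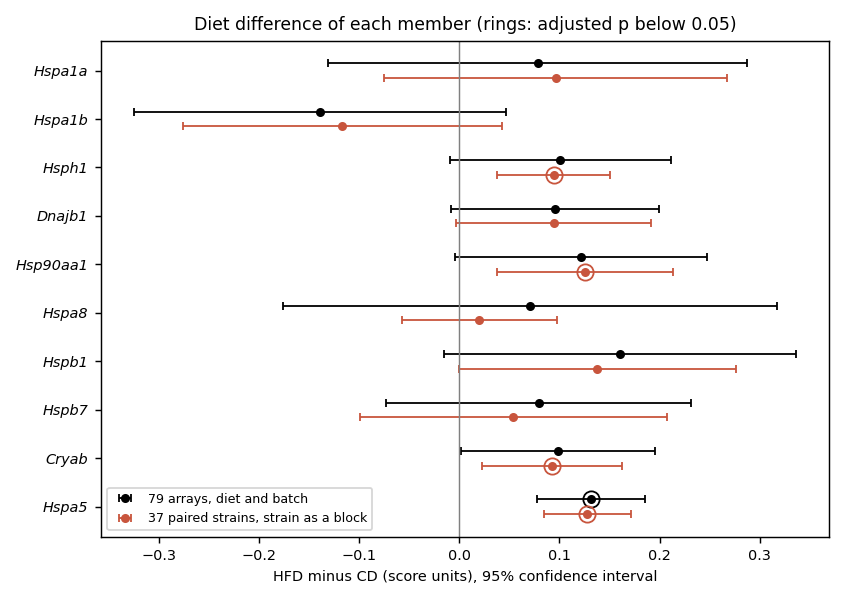
Difference between diets, HFD minus CD in score units, for each of the 10 genes, with 95% confidence intervals. Black points are the fit over 79 arrays with diet and batch, red points the fit over 37 paired strains with strain as a block, and a ring marks an adjusted p below 0.05. Hspa5 is ringed in both fits, and Hsph1, Hsp90aa1 and Cryab only with the block.

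The cytosolic members had overlapping ranges on both diets. Hspa1a ran from 8.64 to 10.488 on CD (median 9.208) and from 8.565 to 11.12 on HFD (median 9.344). Hspa1b ran from 10.174 to 11.755 on CD (median 10.60) and from 9.758 to 12.367 on HFD (median 10.47). In both the HFD range was wider at each end, with DBA/2J at its top. Hsph1 ran from 9.782 to 10.883 on CD (median 10.18) and from 9.676 to 11.032 on HFD (median 10.31). Hsp90aa1 ran from 9.83 to 10.913 on CD (median 10.19) and from 9.758 to 11.385 on HFD (median 10.302). Dnajb1 ran from 7.612 to 8.718 on CD (median 7.90) and from 7.557 to 8.785 on HFD (median 8.051). BXD80 was lowest on CD in Hspa1a, Hsph1 and Dnajb1 and on HFD in Hsph1 and Hsp90aa1.

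Ranges of the small heat shock proteins overlapped as well. Hspb1 ran from 11.828 to 13.787 on CD (median 12.798) and from 12.049 to 13.662 on HFD (median 12.963). Hspb7 ran from 11.442 to 12.607 on CD (median 12.272) and from 11.33 to 13.129 on HFD (median 12.231). Cryab ran from 12.599 to 13.455 on CD (median 13.111) and from 12.702 to 13.522 on HFD (median 13.196). BXD61 had the lowest HFD score in all 3, BXD71 the highest in Hspb7 and Cryab, and BXD43 the highest in Hspb1 on both diets.

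For the inducible HSP70 pair the spread between strains was wide against the mean difference. Hspa1a differed by 0.08 units (95% confidence interval -0.13 to 0.29, limma adjusted p = 0.590) and Hspa1b by -0.14 (-0.32 to 0.05, limma adjusted p = 0.243). Within strains the difference of Hspa1a ran from -1.486 in BXD49 to 1.31 in BXD90, and that of Hspa1b from -1.297 in BXD84 to 0.905 in DBA/2J. Hspa1a was higher on HFD in 23 of 37 strains and Hspa1b in 13. A dimmer second probeset of Hspa1a gave a difference of the opposite sign, -0.06, also not called. Among the other members, the limma adjusted p was 0.143 for Dnajb1, 0.691 for Hspa8, 0.148 for Hspb1 and 0.439 for Hspb7. Both other probesets of Hsp90aa1 were called higher on HFD, with differences of 0.16 (limma adjusted p = 0.0384) and 0.20 (0.00561), so its call depends on the probeset.

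The probesets that represent Hsp90aa1 and Hspb1 had none of their 10 neighbours in the table on the gene's own chromosome. A second probeset of each gene, with 10 of 10 neighbours there, followed the first across CD arrays with r of 0.994 for Hsp90aa1 and 0.999 for Hspb1. Related copies elsewhere in the genome can therefore share signal with them. That second probeset of Hspb1 differed by 0.12 between diets (limma adjusted p = 0.294). That of Hsp90aa1 is the one called at 0.16, whereas the probeset called at 0.20 again had none of its 10 neighbours on the gene's chromosome.

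**Figure D2:**
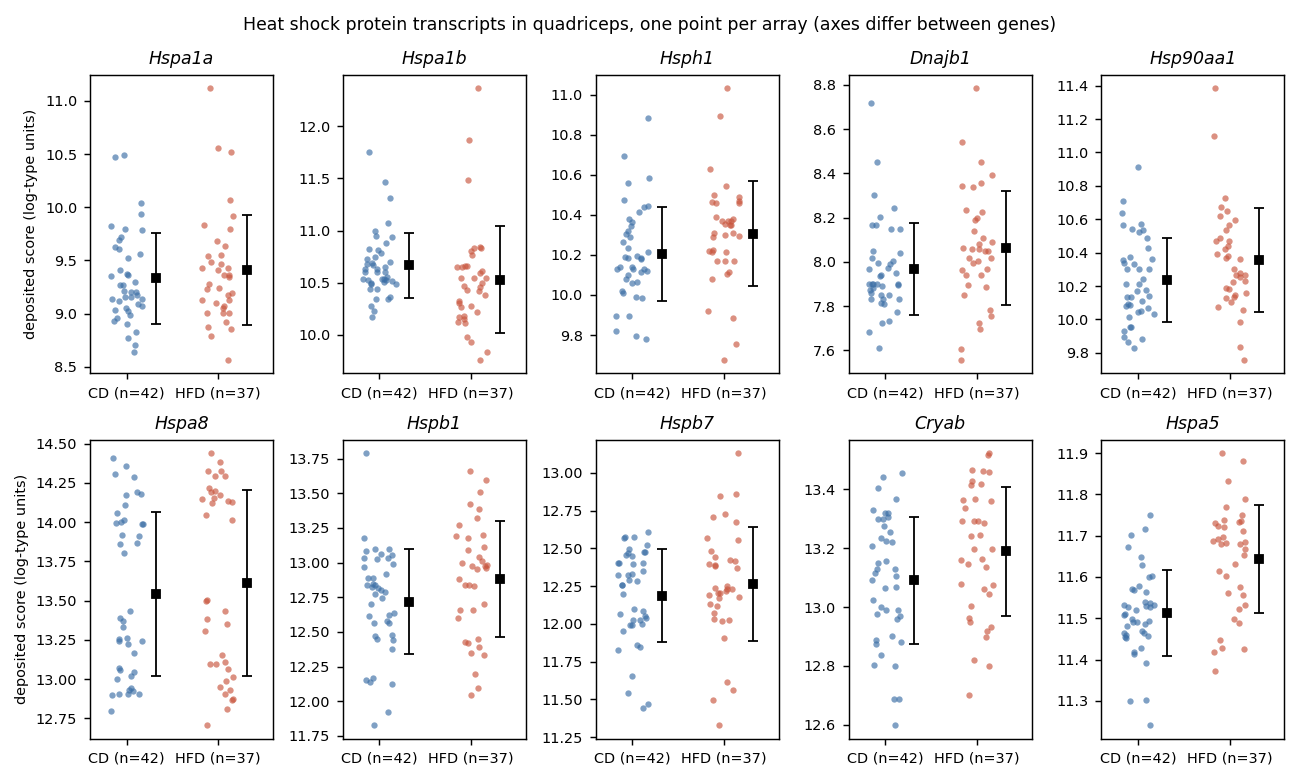
Deposited score on the vertical axis for each gene, 1 point per array, with 42 CD arrays in blue and 37 HFD arrays in red. Black squares and bars are the mean and SD, and the axes differ between genes. Hspa5 lies higher on HFD, Hspa8 falls into separate lower and higher bands on both diets, and a few arrays lie far above the rest in Hspa1a, Hspa1b, Dnajb1 and Hsp90aa1.

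The spread between strains was larger on HFD than on CD for 10 of 10 members over the paired strains. This was also so for 64.0% of all probesets, and it is given without a test. The widest change was in Hspa1b, with an SD of 0.33 on CD and 0.51 on HFD, a ratio of 1.55 against a median ratio of 1.07 over all probesets. The smallest was in Cryab, with a ratio of 1.05. Hspa5 varied little, and its CD spread exceeded that of 7.70% of all probesets. The CD spread of Hspa8 exceeded that of 96.8% of them.

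Genes around the members were read from lists. Of 34 HSF and cytosolic chaperone partners, 8 were higher and 3 lower on HFD, with a median difference of 0.0054. Over all probesets 18.9% were higher and 19.3% lower, so the share of this list called was not above that of the array. The split depended on the setting, with 7 higher and 6 lower after quantile normalization (median -0.0082), 8 and 1 with array medians subtracted, and 2 and 0 in batch 1 alone. In those fits 18.3%, 23.1% and 5.82% of all probesets were higher and 19.1%, 16.2% and 6.81% lower. Among the called genes, the largest positive differences were in Bag5 (0.16, SE 0.026), an HSP70 co-chaperone, Hspa4l (0.15, SE 0.042), an HSP110 protein, and Dnajb2 (0.13, SE 0.026), an HSP40 protein. The largest negative differences among the called genes were in Hspa2 (-0.16, SE 0.036), an HSP70 protein, and the HSP40 proteins Dnajb5 (-0.09, SE 0.031) and Dnaja2 (-0.08, SE 0.029). The limma adjusted p of these 6 genes was at most 0.0188. Hsf1 was not called (-0.06, limma adjusted p = 0.141) and neither was Hsf2 (-0.09, limma adjusted p = 0.0541). Of the 6 other small heat shock proteins limma called 0, and 0 had an unadjusted p below 0.05. The methods' t-test across all probesets also called 0, and the fit with strain as a block called 1, Hspb8 (0.06, adjusted p = 0.0382).

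Some companions of Hspa5 in the endoplasmic reticulum were also higher on HFD. Of 22 endoplasmic reticulum chaperones and stress genes, 11 were higher and 0 lower on HFD, with a median difference of 0.05, beside 18.9% higher and 19.3% lower over all probesets. The largest differences were in Manf (0.24, SE 0.027), a secreted stress protein, Pdia3 (0.23, SE 0.043), a disulfide isomerase, and Serpinh1 (0.17, SE 0.051), the collagen chaperone HSP47, with limma adjusted p of 2.09e-11, 8.03e-06 and 0.00585. Others that rose were Hsp90b1 (0.07), the HSP90 of this compartment, Calr (0.09) and Canx (0.12), which bind glycoproteins, and Xbp1 (0.15), a factor of the unfolded protein response. Hyou1, Pdia4, P4hb, Atf4 and Atf6 did not pass, with differences between -0.05 and -0.008. Quantile normalization left 9 of this list higher and 3 lower, while 3 of the 22 were called higher in the first batch by itself and 7 in the second. Over all probesets 5.82% were higher in the first batch and 12.2% in the second.

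Some markers of other cells also differed between diets, and their counts stand beside the same 18.9% higher and 19.3% lower over all probesets. Of 10 adipocyte markers 6 were higher and 1 lower on HFD, and the list mean ran from 9.42 to 10.9 on CD and from 9.55 to 11.2 on HFD. Of 7 measured macrophage and leukocyte markers 6 were higher on HFD, with list means from 7.90 to 8.51 on CD and from 8.07 to 8.94 on HFD. Of 7 endothelial markers 4 were higher, with list means from 9.55 to 10.2 on CD and from 9.82 to 10.3 on HFD. Of 6 red blood cell markers 1 was higher and 0 lower. Of 9 slow fibre markers 1 was higher and 1 lower, and of 9 fast fibre markers 0 were higher and 1 lower. Across strains Hspa5 followed the adipocyte mean with r = 0.44 (permutation p = 0.00312) and rho = 0.35 (p = 0.0215) over 42 CD arrays. On 37 HFD arrays r was 0.22 (permutation p = 0.197) and rho 0.21 (p = 0.198). Without BXD55 and BXD56, the strains farthest from the CD median of the markers, the CD r was 0.33. Within batches 1 and 2 it was 0.39 and 0.47 on CD and 0.16 and 0.25 on HFD. With the macrophage and leukocyte mean, Hspa5 had r = 0.05 (permutation p = 0.735) and rho = 0.12 (p = 0.44) on CD, and r = 0.34 (p = 0.0428) and rho = 0.29 (p = 0.0761) on HFD. Without BXD79 and BXD62 the HFD r was 0.30, and within batches 1 and 2 it was 0.25 and 0.40. Hsp90aa1, called with the strain block, had r = 0.36 (permutation p = 0.0178) with that mean on CD. On HFD its r was 0.26 (permutation p = 0.127). Within batches 1 and 2 it was 0.16 and 0.49 on CD and 0.20 and 0.46 on HFD. The part of these cells in the differences of Hspa5, its companions and Hsp90aa1 was not tested.

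Covariation across strains was examined next, after the batch mean was removed within each diet. Hspa8 was left out of pooled correlations because its values form 2 clusters, and the 36 pairs of the other 9 members were used. All 45 pairs were computed on each diet and for the difference. Pairs with r of at least 0.5 numbered 10 on CD, 12 on HFD and 12 for the difference between diets. On each diet and in the difference, those pairs lay within the 5 cytosolic members Hspa1a, Hspa1b, Hsph1, Dnajb1 and Hsp90aa1 or within the 3 small heat shock proteins. A permutation p below 0.05 was found for 17 pairs on CD, 17 on HFD and 15 for the difference, not adjusted for the number of pairs.

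**Figure D3:**
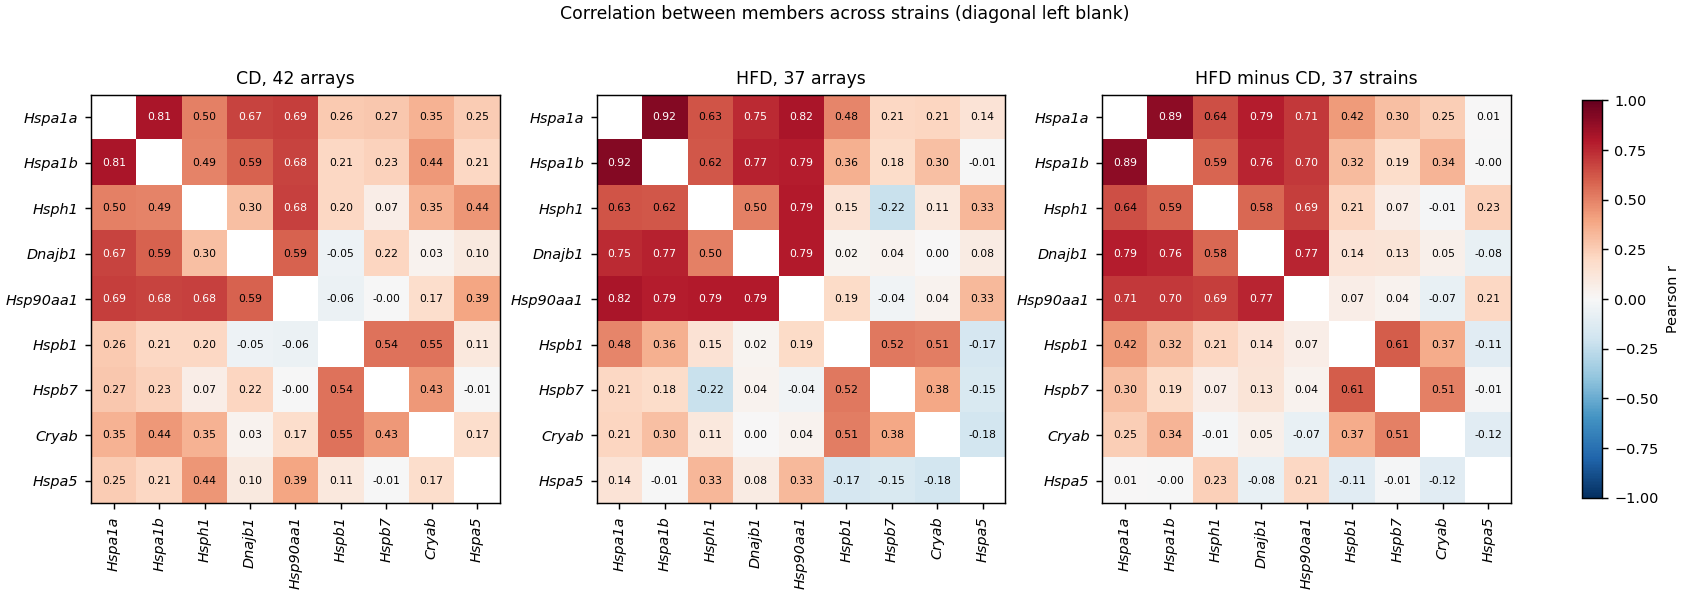
Pearson r between 9 members across 42 CD arrays, 37 HFD arrays and the 37 differences HFD minus CD, with the batch mean removed within each diet and Hspa8 left out. Red squares are positive and blue negative. The upper left block of 5 cytosolic members holds r of 0.30 to 0.92, and the block of Hspb1, Hspb7 and Cryab r of 0.37 to 0.61.

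Among the 10 pairs of the 5 cytosolic members, r ran from 0.30 to 0.81 on CD, from 0.50 to 0.92 on HFD and from 0.58 to 0.89 for the difference. The closest pair was Hspa1a with Hspa1b, with r = 0.81 and rho = 0.72 on CD and r = 0.92 and rho = 0.82 on HFD. Each of these had a permutation p of 1e-05. Their differences between diets had r = 0.89 and rho = 0.84 (permutation p = 1e-05 for each). This pair is near-identical in sequence. The pair described next is not, and it is not the next closest. Hspa1a with Hsp90aa1, for one, had r = 0.69 on CD and 0.82 on HFD. Hsph1 with Hsp90aa1 had r = 0.68 and rho = 0.65 on CD (permutation p = 1e-05 for each). On HFD r was 0.79 (permutation p = 1e-05) and rho 0.64 (p = 4e-05), and for the difference r was 0.69 (1e-05) and rho 0.65 (3e-05). Without the 2 arrays farthest from the Hsph1 median, BXD43 with C57BL/6J on CD and BXD43 with BXD80 on HFD, r was 0.63 and 0.68. Within batches 1 and 2 it was 0.65 and 0.74 on CD and 0.81 and 0.75 on HFD.

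The r of the 10 pairs differed between batches. On CD it was at least 0.5 for 5 pairs in batch 1 (0.015 to 0.87, median 0.48) and 9 in batch 2 (0.47 to 0.87, median 0.75). On HFD it was so for 10 pairs in batch 1 (0.57 to 0.97, median 0.82) and 4 in batch 2 (0.14 to 0.76, median 0.46), so most of these HFD relations did not reach 0.5 within both batches. Hsph1 with Dnajb1 gave the lowest r of the block on CD, 0.30 (permutation p = 0.0549, rho 0.20, p = 0.195). Within CD batch 1 that r was 0.015 and within batch 2 0.57. On HFD, Hspa1b with Hsp90aa1 had r = 0.79 (permutation p = 1e-05, rho 0.62, p = 6e-05). In batch 1 it was 0.87 and in batch 2 0.14, the lowest of the 10 there. Without the arrays of DBA/2J and BXD43, which are both in batch 1, it was 0.61. Some of these relations rested on a few strains with high values. Without DBA/2J, BXD43 and BXD84, the r of the 10 pairs ran from 0.13 to 0.72 on CD, from 0.31 to 0.85 on HFD and from 0.46 to 0.86 for the difference. Of the 10, 4, 7 and 8 then had r of at least 0.5, against 8, 10 and 10 with all strains.

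The small heat shock proteins formed the second block. Hspb1 with Hspb7 had r = 0.54 (permutation p = 0.0002) and rho = 0.49 (p = 0.00111) on CD, and r = 0.52 (p = 0.00074) and rho = 0.50 (p = 0.00197) on HFD. For the difference r was 0.61 (permutation p = 7e-05) and rho 0.62 (p = 2e-05). Without the 2 arrays farthest from the Hspb1 median r was 0.46 on CD, 0.44 on HFD and 0.64 for the difference. Hspb1 with Cryab had r of 0.55 on CD and 0.51 on HFD, and Hspb7 with Cryab 0.43 and 0.38. Without BXD61 and BXD71 the HFD r of Hspb7 with Cryab was 0.18, and its rho over all arrays was 0.26 (permutation p = 0.118), so that relation rested on those strains. In CD batch 2 alone the r of Hspb1 with Cryab was 0.22, against 0.74 in batch 1. The 15 pairs of a cytosolic with a small member had a median r of 0.21 on CD, 0.15 on HFD and 0.14 for the difference, and none reached 0.5. Some were as close as pairs of small members. Hspa1b with Cryab had r = 0.44 on CD (permutation p = 0.00365, rho 0.46, p = 0.00241), with 0.59 in batch 1 and 0.28 in batch 2, and 0.38 without BXD84 and DBA/2J. Hspa1a with Hspb1 had r = 0.48 on HFD (permutation p = 0.00196, rho 0.40, p = 0.016), with 0.54 in batch 1 and 0.33 in batch 2, and 0.36 without DBA/2J and BXD43.

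No pair of Hspa5 reached 0.5 over all arrays of a diet. Its r with the other members, Hspa8 aside, ran from -0.01 to 0.44 on CD and from -0.18 to 0.33 on HFD. The highest was with Hsph1, 0.44 on CD (permutation p = 0.00367, rho 0.34, p = 0.0272) and 0.33 on HFD (permutation p = 0.0444, rho 0.39, p = 0.0188). For the difference between diets that r was 0.23 (permutation p = 0.162). Within batches it passed 0.5 with Hsph1 in CD batch 1 (0.57, against 0.35 in batch 2) and with Hsp90aa1 in HFD batch 2 (0.64, against 0.24 in batch 1). The r of Hspa8 with the others was read within its clusters. The clusters of each diet alone were used, with 23 and 19 arrays on CD and 20 and 17 on HFD. On CD r ran from -0.24 to 0.27. On HFD it ran from -0.27 to 0.57 in the lower cluster and from -0.54 to 0.39 in the higher. The r with the 5 cytosolic members was positive in the lower HFD cluster and negative in the higher, as for Hspa1a (0.57 and -0.54). This contrast was not tested.

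Hsph1, Hspa5 and Cryab were each used as a covariate across all probesets, with adjusted p over all 35555 others. Hsph1 had a positive association with Hsp90aa1 on CD (slope 0.74, SE 0.12, limma adjusted p = 0.00423) and on HFD (slope 0.94, SE 0.12, limma adjusted p = 2.08e-05). The call was lost in batch 1 alone on CD and in each batch alone on HFD, fits in which at most 3 probesets passed. This was 1 of 9 members on each diet, where 0.0619% of all probesets passed with a positive slope on CD and 0.0253% on HFD. On HFD, Hspa1a and Hspa1b each had a limma adjusted p of 0.0603 with Hsph1. Without the batch term or after quantile normalization 3 members passed on HFD, where 13 and 10 of the 35555 probesets had a positive slope and passed. Cryab had a positive association with Hspb1 on CD (slope 0.95, SE 0.23, limma adjusted p = 0.0347), where 0.225% of all probesets passed with a positive slope (80) and 178 probesets and 0 members with a negative one. That call was lost after quantile normalization, after centring on the array median, in each batch alone and without the 2 arrays farthest from the Cryab median. Without those 2 arrays, 0 probesets passed with a positive slope on CD and 1 with a negative one. After centring these were 10 and 19, and after quantile normalization 92 and 99. On HFD 0.16% of all probesets passed with a positive slope on Cryab (57) and 169 probesets with a negative one. Without the 2 HFD arrays farthest from the Cryab median these were 1 and 12, and after quantile normalization or centring 1 and 2. Of the 9 members 0 passed in either direction, with Hspb1 at a limma adjusted p of 0.0658. At an unadjusted limma p below 0.05 were 2 of the 9 members and 7377 of the 35555 probesets, a like share. With Hspa5, limma called 0% of probesets on either diet, against 2386 at an unadjusted p below 0.05 on CD and 3316 on HFD. Of the members, Hsph1 and Hsp90aa1 were below it on both. With array medians subtracted, 392 probesets had a positive and 196 a negative association with Hspa5 on HFD, again with 0 members.

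The genes most like these 3 members, by the mean of the CD and HFD r over 42 and 37 arrays, are given as a description. For Hsph1 they were P4ha1 (mean r 0.80), a collagen prolyl hydroxylase, Hsp90aa1 (0.74), Hspa4l (0.67), Stip1 (0.66), the co-chaperone that links HSP70 to HSP90, and Smurf2 (0.64), a ubiquitin ligase. For Hspa5 they were Trappc3 (0.55), a vesicle tethering factor, Pdia6 (0.54), Hsp90b1 (0.54), Manf (0.52) and Mocs2 (0.51). Pdia6, Hsp90b1 and Manf belong to the endoplasmic reticulum list. For Cryab they were Chchd10 (0.66), a mitochondrial protein, Hspb6 (0.62), another small heat shock protein, Atp5d (0.62), a subunit of ATP synthase, Fam55d (0.60) and Tpm2 (0.60), a tropomyosin. For Hspa1b, which was added after values were seen, they were Hspa1a (0.87), Hsp90aa1 (0.73), Dnajb1 (0.68), Hspa4l (0.63) and Nr4a2 (0.63), a nuclear receptor induced at once by many stimuli.

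Fibre type markers varied with some small heat shock proteins. Of 60 pairings of a member with a marker list, or 120 relations over both diets, 1 had r of at least 0.5 in size on both diets, Hspb7 with the slow fibre list. Here r was 0.63 and rho 0.67 on CD (permutation p = 1e-05 for each), and r = 0.52 (permutation p = 0.00094) and rho = 0.48 (p = 0.00317) on HFD. Without the 2 arrays farthest from the median of the list, r was 0.62 and 0.42. Within batches 1 and 2 it was 0.61 and 0.67 on CD and 0.61 and 0.45 on HFD. Hspb1 with the fast fibre list had r = -0.56 (permutation p = 0.00033) and rho = -0.60 (p = 0.0002) on HFD, and r = -0.27 (permutation p = 0.0811) on CD. In batch 2 alone the HFD r was -0.31, against -0.78 in batch 1. Cryab with the slow fibre list had r = 0.42 (permutation p = 0.00569) on CD and 0.22 (p = 0.195) on HFD. The part of fibre type in the variation of these genes was not tested.

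How far a strain kept its level from one diet to the other was asked over the 37 paired strains. One relation was computed per member, 10 in all. Of the 10 members 4 had r of at least 0.5 between diets, Hsph1, Hsp90aa1, Cryab and Hspa8, where 7.69% of all probesets did. Where a strain had its CD and HFD arrays in batch 1 (12 strains), 7 members, Hspa8 among them, and 22.8% of all probesets reached it. With both arrays in batch 2 (17 strains), the members that did were Hspa5, Hspa8, Hsph1 and Cryab. The share of all probesets there is not given. The value of Hspa8 spans its clusters and is given within them further on. For Hsph1 r was 0.79 and rho 0.74 (permutation p = 1e-05 for each), and r was 0.73 without C57BL/6J and BXD43. Within strains whose arrays were both in batch 1 it was 0.86, both in batch 2 0.71 and in different batches 0.72. BXD43 had the highest Hsph1 score on both diets, 10.883 and 11.032, and BXD80 the lowest on both, 9.782 and 9.676. For Hsp90aa1 r was 0.57 (permutation p = 0.00036, rho 0.55, p = 0.00045), and for Cryab 0.53 (p = 0.00087, rho 0.53, p = 0.00086). Without the 2 strains farthest from the median they were 0.52 and 0.48. Within batches 1 and 2 they were 0.69 and 0.46 for Hsp90aa1 and 0.66 and 0.50 for Cryab. The other probesets of Hsp90aa1 had r of 0.56 and 0.44 between diets. Hspa5 followed at 0.49 (permutation p = 0.00182, rho 0.45, p = 0.00527), with 0.28 in batch 1 and 0.59 in batch 2, and it passed 0.5 after quantile normalization, at 0.53.

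The other members had lower values, and differences between members in this r were not tested. Hspa1a had r = 0.37 between diets (permutation p = 0.0229, rho 0.42, p = 0.0108), which was 0.60 without BXD49 and BXD84. Within batches 1 and 2 it was 0.69 and 0.12. The dimmer second probeset of Hspa1a had r = -0.13 between diets. Hspa1b had r = 0.35 (permutation p = 0.0362, rho 0.19, p = 0.253), which was 0.19 without DBA/2J and BXD84, so that relation rested on those strains. It was 0.71 where the CD and HFD arrays both belonged to batch 1 (12 strains) and -0.49 where both belonged to batch 2 (17 strains). Dnajb1 had r = 0.20 (permutation p = 0.242, rho 0.26, p = 0.121), which was 0.34 without BXD49 and BXD84 (permutation p = 0.0484). Within batches 1 and 2 it was 0.44 and 0.02. Among the small heat shock proteins Hspb1 had r = 0.39 (permutation p = 0.0175, rho 0.28, p = 0.0961), and 0.23 without BXD43 and BXD66, so that relation rested on those strains. Hspb7 had r = 0.06 (permutation p = 0.742, rho 0.12, p = 0.474).

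**Figure D4:**
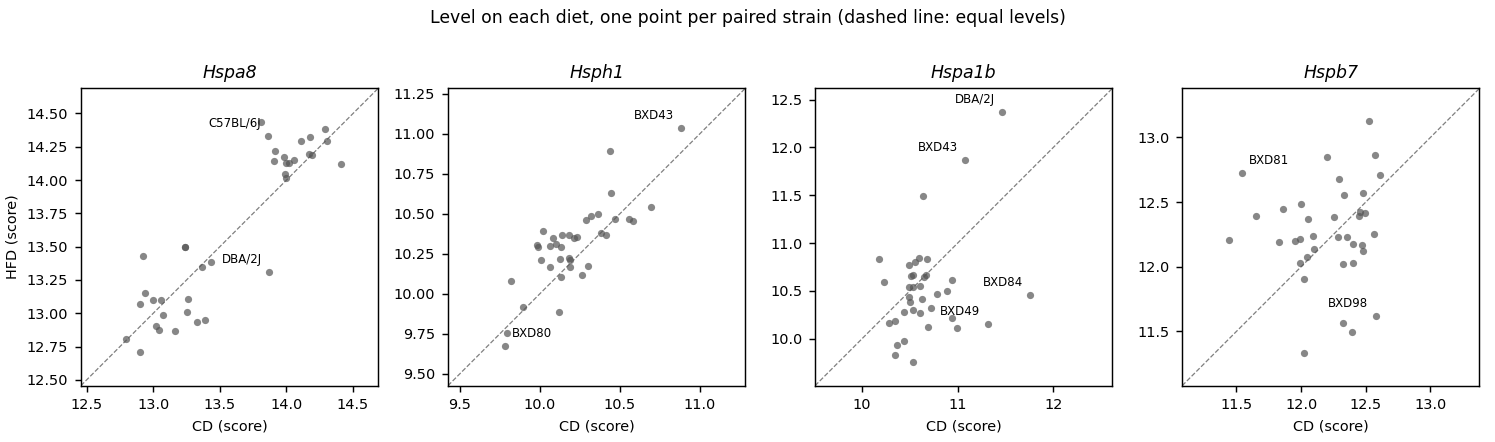
Score on CD (horizontal) and on HFD (vertical) for Hspa8, Hsph1, Hspa1b and Hspb7, 1 point per paired strain, with a dashed line where both are equal. Hspa8 forms a lower and a higher cluster, with DBA/2J at 13.870 on CD and 13.309 on HFD apart from both, Hsph1 follows the line, Hspa1b has DBA/2J and BXD43 high on both diets and BXD84 and BXD49 high on CD only, and Hspb7 scatters without order.

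Hspa8, the constitutive HSP70, had a pattern of its own among the members. A mixture of 2 normal components described the mean of both diets with a BIC lower by 35.0 than a single one, and Ashman's D, the distance between the components in units of their spread, was 6.5. The lower cluster held 20 strains and the higher 17. In the lower cluster the score ran from 12.794 to 13.870 on CD (median 13.12) and from 12.706 to 13.501 on HFD (median 13.08). In the higher it ran from 13.806 to 14.412 on CD (median 14.02) and from 14.012 to 14.438 on HFD (median 14.19). On HFD the clusters did not overlap, and on CD the single strain that crossed was DBA/2J. C57BL/6J had 13.862 on CD and 14.329 on HFD, and DBA/2J 13.870 and 13.309. DBA/2J was thus in the higher cluster on CD and the lower on HFD, the only 1 of 37 strains in different clusters. Its CD and HFD arrays fell into different clusters for 2 of the 64 clustering probesets.

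The strain order was then read within each cluster. In the 20 lower strains r between diets was 0.40 (permutation p = 0.0805, rho 0.38, p = 0.1), and in the 17 higher strains it was 0.01 (permutation p = 0.965, rho -0.03, p = 0.92). No other member met the rule for clusters, and the share of all probesets that meet it is not given here. The diet difference of Hspa8 within strains ran from -0.561 in DBA/2J to 0.632 in BXD83, with a mean of 0.03 (SD 0.26, n = 37), and 22 strains were higher on HFD. It was not called with limma, with or without strain as a block (adjusted p = 0.709 with it).

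Single strains carried the highest values of the inducible genes. An array was called outlying when it lay over 3.5 scaled median absolute deviations from the median of its diet after the batch mean was removed. By this rule 5 of 10 members had at least 1 such array, where 32.5% of all probesets did. The members were Hspa1a, Hspa1b, Hspa5, Dnajb1 and Hsp90aa1, with 12 values in all, or 1.52% of the members' values against 0.642% of all values. Of the 12, 11 were high and 1, Hspa5 in BXD50 on CD, was low. Most of the 12 were in Hspa1a and Hspa1b, whose probesets can share signal. BXD49 and BXD84 on CD and DBA/2J on HFD were outlying in both genes of this pair.

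The high outlying values on CD were in BXD49, BXD84 and DBA/2J. BXD84 had 10.468 in Hspa1a, 11.755 in Hspa1b and 8.718 in Dnajb1, where the CD medians were 9.208, 10.6025 and 7.9015. BXD49 had 10.488, 11.315 and 8.453 in the same genes. On HFD neither strain was high, with Hspa1a at 9.171 in BXD84 and 9.002 in BXD49 against a median of 9.344. BXD49 then ranked 31 of 37 from the highest in Hspa1a and in Hspa1b. DBA/2J had an outlying Hspa1b on both diets, 11.462 on CD and 12.367 on HFD, and an outlying Hspa1a of 11.12 on HFD. Its HFD array had the highest Hspa1a, Hspa1b and Dnajb1 score of the 37, and the second highest Hsph1 and Hsp90aa1. BXD43 was outlying on HFD in Hspa1b (11.872) and Hsp90aa1 (11.385), and had 11.076 and 10.71 on CD. On these arrays between 0.180% (BXD84 on CD) and 0.593% (BXD43 on HFD) of all probesets were outlying.

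The parents were compared over both diets with a fit that took the spread from all strains. The difference, C57BL/6J minus DBA/2J, was -1.12 units in Hspa1a (SE 0.36), -1.14 in Hspa1b (SE 0.34), -0.60 in Dnajb1 (SE 0.21) and -0.48 in Hsp90aa1 (SE 0.19). It was 0.51 in Hspa8 (SE 0.16), whose CD scores given above lie close together in the parents. Those of Hsp90aa1 did too, at 10.534 in C57BL/6J and 10.573 in DBA/2J, against 10.185 and 11.101 on HFD. For Dnajb1 the scores in that order were 7.772 and 8.042 on CD and 7.848 and 8.785 on HFD. The parental differences of these genes were thus mainly on HFD, with 1 array per parent. Hspb7 differed by -0.62 (SE 0.32, limma adjusted p = 0.657). None of the first 5 passed after adjustment over all probesets (limma adjusted p of 0.154, 0.10, 0.201, 0.342 and 0.154), though each had an unadjusted p below 0.05. Of the array 1.26% of probesets passed. With the 4 parental arrays alone, 0 members passed as well, where 4 of 35556 probesets did. The 5 members with an unadjusted limma p below 0.05 were then Hspa1a, Hspa1b, Dnajb1, Hspb1 and Hspb7. The share of all probesets at that unadjusted p is not given here.

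The differences were also counted strain by strain. The number of members higher on HFD ran from 1 to 10 of 10 per strain. BXD81 had 10, 10 strains had 8 or more, and 3 had 2 or fewer, among them BXD49 and BXD84 with 1. The 5 cytosolic members were all higher in 9 strains, all lower in 5 and mixed in 23. The 3 small heat shock proteins were all higher in 12 strains and all lower in 7. In BXD90 the cytosolic members differed by 1.31 (Hspa1a), 0.856 (Hspa1b), 0.322 (Hsph1), 0.605 (Dnajb1) and 0.656 (Hsp90aa1), and in DBA/2J by 1.083, 0.905, 0.457, 0.743 and 0.528 in the same order. In BXD49 the same genes changed by -1.486, -1.164, -0.132, -0.568 and -0.49. For Hspb7, BXD81 (1.188) and C57BL/6J (0.763) had the largest positive differences and BXD98 (-0.959) and BXD56 (-0.901) the largest negative ones. For Cryab they were BXD81 (0.527) and BXD69 (-0.335). Each of these is a difference between single arrays, so it has no replicate within the strain.

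**Figure D5:**
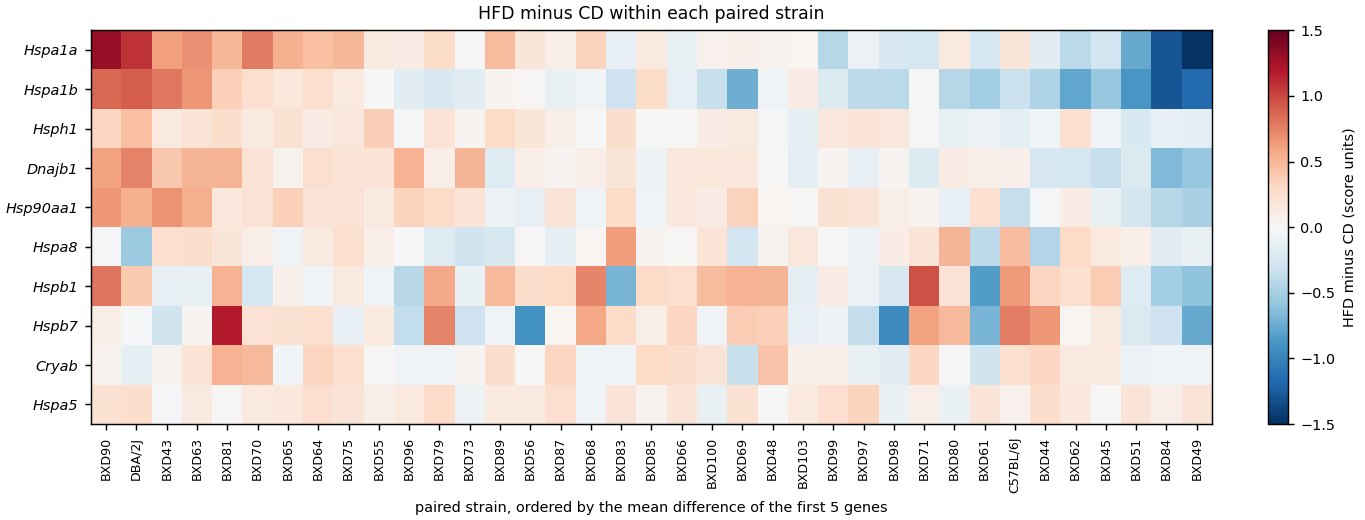
Difference HFD minus CD in score units, red where higher on HFD and blue where lower, for 10 genes (rows) in 37 paired strains (columns, ordered by the mean of the 5 cytosolic members). BXD90 and DBA/2J stand at one end and BXD84 and BXD49 at the other, while the rows of Hspa5 and of the small heat shock proteins follow other orders.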

How the data were processed

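The 79 arrays of quadriceps RNA were of the Affymetrix Mouse Gene 1.0 ST type. The authors deposited a score per probeset, with a mean of 8.0 and an SD of 2.0 on every array. The submitters' processing notes name Affymetrix Expression Console. Log base, summarization and any batch correction are not given in the sources used here. The number of arrays limits the precision. Groups, strains and batches (18 CD and 17 HFD arrays in batch 1, 24 and 20 in batch 2) came from titles and characteristics, and the column BXD92 was matched to the title BXD92a.

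The members and lists were chosen with earlier results of these data known. Diet was fitted with limma 3.58.1 (diet and batch, 79 arrays), parents with 1 coefficient per strain, with Benjamini-Hochberg adjustment over 35556 probesets and a threshold of 0.05. Code was tested on simulated data. Correlations were tested by 2-sided permutation with 100000 draws. Clusters required a BIC gain of at least 10 and Ashman's D above 2. Arrays are paired by strain: deviations from diet means correlated within strains with a median r of 0.20, against -0.007 between strains. Named genes were the members, the 3 called genes of a list with the largest difference in each direction, and the 5 most like Hsph1, Hspa5 and Cryab. Other list genes, strains of the pairs and second probesets were chosen after values were seen. Software was Python 3.11.15 with scikit-learn 1.9.0, pandas 2.3.3 and numpy 2.4.6, and R 4.3.3. Alternatives covered the batch term, each batch, the strain block, strains included, test, normalization and thresholds.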

Additional observations from a re-analysis of the deposited data

How the results depend on the processing

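Over all members, other settings and other probesets gave 145 single diet differences. Of these, 132 kept the direction and side of the threshold of the main fit, where the permutation was read by its unadjusted p. Of 175 counts, 146 stayed within 1.5 times. Hspa5 was called in each of the 13 other fits, with differences of 0.12 to 0.15 units and adjusted p of 9.98e-06 to 0.0211. With strain as a replicate block, 4 members were called in place of 1, also without BXD63 (chosen after seeing the data), and 1 small heat shock protein of the list was called instead of 0 in both. The block changed no call of the other members. Exchanging diets within strains gave an unadjusted permutation p of 0.00162 for Hsph1, 0.00998 for Hsp90aa1 and 0.00888 for Cryab. Centring on the array median called 2 members, left 1 partner gene lower instead of 3, and turned the split over all probesets from 6703 higher and 6848 lower to 8199 and 5758. Quantile normalization called 6 partner genes and 3 endoplasmic reticulum genes lower. Higher partner genes numbered 2 in batch 1 alone, with 0 lower, and 4 in batch 2. Higher endoplasmic reticulum genes numbered 3 and 7. The second Hspa1a probeset gave a difference of -0.058 (adjusted p = 0.472). Members associated with Hsph1 numbered 0 on CD in batch 1, where 0 probesets passed. On HFD they numbered 0 in either batch, where 3 probesets passed in batch 1 and 0 in batch 2. They numbered 3 on HFD without the batch term or after quantile normalization, where 13 and 10 probesets passed with a positive slope. Members associated with Cryab on CD numbered 0 in either batch, without the 2 farthest arrays, after quantile normalization and after centring. Probesets with a positive and a negative slope that passed there numbered 2 and 1 in batch 1 and 0 and 0 in batch 2. They numbered 0 and 1 without the 2 arrays, 92 and 99 after quantile normalization and 10 and 19 after centring. In strains with both arrays in batch 1, 7 members had a cross-diet r of at least 0.5, where 22.8% of all probesets did. Pairs with r of at least 0.5 fell to 4 on CD and 7 on HFD without the 2 strains farthest from the median of the first gene, to 6 on CD without DBA/2J, BXD43 and BXD84 (chosen after seeing the data), and to 6 on HFD in batch 2. At 5 scaled median absolute deviations 2 members and 5.08% of all probesets had an outlying array, and at 3 deviations 7 members and 56.2%. The causes were not tested.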
